A study of Mus musculus with 2 samples.

Results

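The genes described here encode the Wnt ligands, their receptors, their secreted antagonists, the R-spondin axis and the core of the beta-catenin machinery. They were taken by symbol, as every row of the count table named as a Wnt, Fzd, Sfrp, Dkk, Lgr, Rspo, Nkd, Tcf7 or Ror gene, with 17 further genes such as Ctnnb1, Axin2, Lef1, Lrp5 and Lrp6. The rule took 63 of the 19674 gene rows. Of these, 46 had a sum of at least 50 counts over the pair of libraries, which is what measured means below, 13 had counts below that minimum and 4 had no count in either library. The samples were cultures of the mouse skin fibroblast cell line MDFB, labelled wild type, treated either with vehicle or with the cytokine IL-17A, made mainly by T cells. Both cultures shared 1 batch label, and dose, treatment time and clonal origin are not stated in the labels. Each treatment had 1 library, of 24427027 counts for vehicle and 23559416 for IL-17A, so every difference below compares these libraries and has no replicate check and no p-value.

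Wnt proteins are lipid-modified secreted signals. Porcn attaches the lipid, Wls carries the ligand to the cell surface, and Frizzled receptors bind it together with Lrp5 or Lrp6, or with Ror1, Ror2 or Ryk. When the canonical branch is active, the complex of Axin, Apc and Gsk3b stops marking beta-catenin for destruction, and beta-catenin then acts with TCF/LEF factors on target genes. Sfrp, Dkk and Wif1 proteins restrain the signal outside the cell, whereas R-spondins, bound by Lgr receptors, raise it by removing the ligases Znrf3 and Rnf43 that clear Frizzled from the surface. In skin, Wnt signals are known for their part in dermal fibroblast identity and hair follicle formation.

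The identity of the cultures was read from marker lists. All 9 fibroblast genes were measured, with a summed level of 56437 CPM (counts scaled to a common library size, as in the usual CPM unit) with vehicle and 42221 with IL-17A, and Col1a1 was the most abundant at 590781 and 348690 counts. Of the 9, 4 had a ratio above 1 and 5 below, and 1, the proteoglycan gene Dcn, named after its value was seen, was 6.15-fold higher, with 17022 and 96320 counts. Keratinocyte markers were low, at 6.64 and 7.43 CPM in sum, with 3 of 12 measured and Krt1 and Krt15 at 0. Leukocyte markers had 7 of 11 measured, at 199.7 and 289 CPM in sum and led by Lyz2, and Cd3e, Cd3g, Cpa3 and Mcpt4 were at 0. Cd74, named after its value was seen and the only measured one past 2-fold, was 3.66-fold higher, with 153 and 515 counts. The 8 endothelial markers, 5 of them measured and none at 0, summed to 148 and 222 CPM. Flt1 alone made up 138 and 212 CPM of this. Of the 5 measured, 4 had a ratio above 1 and 1 below. The 1 below was Tek, named after its value was seen and the only measured one past 2-fold. It was 2.50-fold lower, with 49 and 18 counts. Under the minimum, Pecam1 had 11 and 33 counts, Kdr 31 and 10, and Emcn 7 and 5. The 9 melanocyte and Schwann markers summed to 31.6 and 49.5 CPM, led by Mitf, with 3 measured and Tyr at 0. The 7 adipocyte markers summed to 22.03 and 17.3 CPM, with Fabp4 the most abundant over both libraries, 3 measured and Lep at 0. None of the 3 was within 2-fold, against 91.1% of all measured genes. Fabp4 was 2.04-fold higher, but came within 2-fold under total-count and upper-quartile scaling. Pparg and Plin4, named after their values were seen, were 5.58-fold and 3.75-fold lower. Mural cell markers were mostly lower, and 6 of 7 were measured. Of these, 5 (83.3%, against 3.69% of all measured genes) were at least 2-fold lower in the IL-17A library. The sum of the 7 went from 207 to 66.8 CPM, with Cspg4 the most abundant and none at 0. In bulk RNA, fewer cells of a type and less RNA per cell cannot be told apart, and the part of these markers in the differences below was not tested. Both receptor genes for the cytokine were present, Il17ra at 2012 and 1827 counts and Il17rc at 1066 and 978.

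More Wnt genes were lower than higher in the IL-17A library. At a limit of 2-fold, 10 of the 46 measured members (21.7%) were lower, where 3.69% of all 13534 measured genes were, and 2 members (4.35%) were higher, where 5.19% of all genes were, or 8.88% of all genes in either direction. The choice of genes was made with earlier results of these data known, so these shares are a description. The 10 were Lgr5, Wnt4, Ror1, Wnt16, Nkd1, Fzd4, Fzd6, Fzd5, Sfrp2 and Sfrp1, and the 2 were Dkk1 and Nkd2. A log2 ratio below 0 was found for 29 of 46 members (63.0%), against 49.7% of all measured genes. The median log2 ratio of the members was -0.15, and that of all measured genes was 0.0015. The exact 95% counting interval lay wholly below a ratio of 1 for 25 of 46 members, against 3583 of all 13534 measured genes (26.5%). It lay wholly above 1 for 14 of the 46, against 3879 of all (28.7%), and held 1 for 7. The members' share was thus larger than that of all genes on the lower side and near it on the higher side. These counts also depend on how many reads each gene had. These intervals cover counting error only, and they leave out variation between cultures. The reads carried no molecular identifiers, so copies of the same molecule could be counted more than once. The intervals may thus be too narrow even for counting error.

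**Figure D1:**
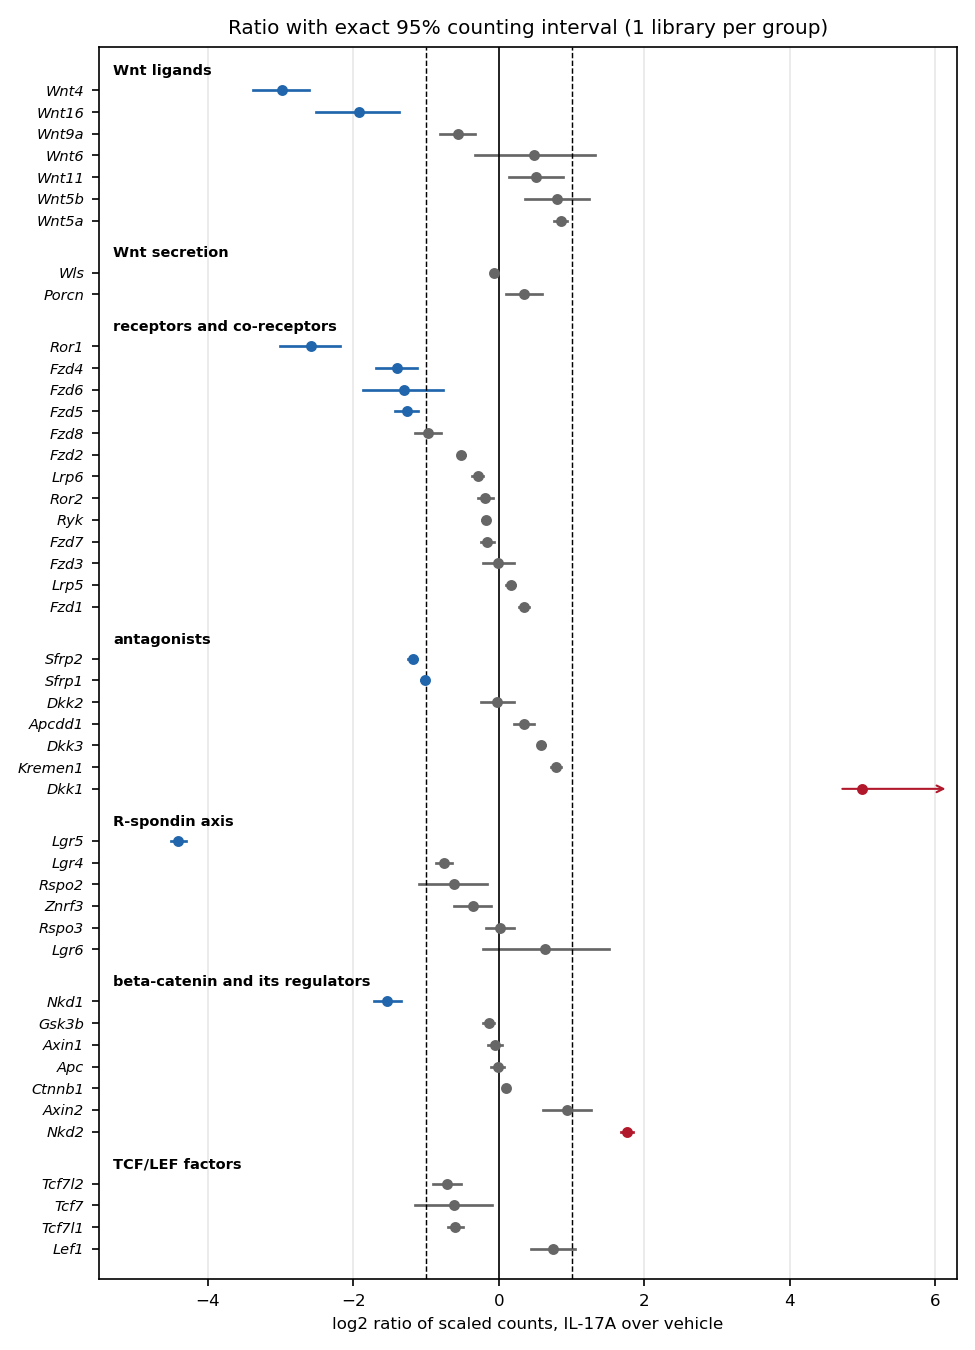
Log2 ratio of scaled counts, IL-17A over vehicle, for the 46 measured members by role. Points are ratios, horizontal lines are exact 95% counting intervals, dashed lines mark 2-fold, blue is at least 2-fold lower and red at least 2-fold higher. Lgr5 lies farthest to the left, and Dkk1, with 0 vehicle counts, is drawn at its ratio against a floor of 3 counts with an arrow for the open upper bound.

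Among the 7 measured ligands, Wnt4 and Wnt16 were at least 2-fold lower (28.6%, against 3.69% of all measured genes). None was at least 2-fold higher (against 5.19% of all), and Wnt5a held a larger share of the family. Wnt5a, the best known ligand of the branches that do not use beta-catenin, had 1776 vehicle counts and 2944 IL-17A counts. It was 1.802-fold higher (95% counting interval 1.70 to 1.91), inside the 2-fold limit. Its close relative Wnt5b had 72 and 115 counts, 1.74-fold higher (95% counting interval 1.28 to 2.36). Wnt11, a further ligand of the non-canonical branches, had 110 and 144 counts and stood at a log2 ratio of 0.51 (interval 0.14 to 0.88). All 3 intervals lay above a ratio of 1.

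Wnt4, a ligand known from kidney and reproductive tract development, had 568 vehicle counts and 66 IL-17A counts. It was 7.92-fold lower (95% counting interval 6.13 to 10.4), and 0.318% of all measured genes had a lower ratio. Wnt16, a ligand studied in bone, had 136 and 33 counts and was 3.79-fold lower (95% counting interval 2.58 to 5.73). Wnt9a had 388 and 241 counts, a log2 ratio of -0.57 (interval -0.80 to -0.33). Wnt6 had 24 and 31 counts, and its interval of -0.33 to 1.32 on the log2 scale spanned 0. In GENCODE M21 on GRCm38, the assembly also called mm10, Wnt4 lies on chromosome 4 at 137277489 to 137299726, Wnt16 on chromosome 6 at 22288227 to 22298522 and Wnt5a on chromosome 14 at 28504750 to 28527448.

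Levels of different genes were compared as CPM per kilobase of merged exons. On that scale the ligands stood in the order Wnt5a at 9.08, Wnt4 at 5.42, Wnt9a at 4.66 and Wnt16 at 1.25 with vehicle, followed by Wnt5b at 1.08 and Wnt11 at 1.06, which changed places with the basic annotation. With IL-17A the order was Wnt5a at 16.4, Wnt9a at 3.15, Wnt5b at 1.88, Wnt11 at 1.51, Wnt4 at 0.684, Wnt6 at 0.615 and Wnt16 at 0.329. Of the counts of the 14 Wnt rows, Wnt5a held 56.7% with vehicle (95% Clopper-Pearson interval 54.9 to 58.4) and 80.9% with IL-17A (79.6 to 82.1). Wnt4 held 18.1% (16.8 to 19.5) and 1.81% (1.40 to 2.30). Per exon length, the share of Wnt5a was 38.2% and 64.4%. The summed counts of the family were 3133 and 3640, a log2 ratio of 0.34 (interval 0.27 to 0.41). Wnt5a alone made up 1776 and 2944 of these counts, so the sum mainly follows that gene.

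The remaining 7 ligand rows were under the minimum. Wnt2 had 17 vehicle counts and 2 IL-17A counts, a ratio 7.82-fold lower with a counting interval of 1.86 to 69.8. Wnt2b had 19 and 29 counts, Wnt10a 9 and 18, Wnt10b 11 and 12, and Wnt7b 3 and 5. Wnt3 and Wnt3a, typical canonical ligands, had 0 counts in both libraries, and a count of 0 allows up to 3 counts, or 0.123 CPM of the unscaled vehicle total and 0.127 CPM of the IL-17A total. The secretion genes differed little: Wls had 10285 and 9022 counts, a log2 ratio of -0.07 (interval -0.11 to -0.03), and Porcn had 246 and 288, at 0.35 (interval 0.10 to 0.60).

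**Figure D2:**
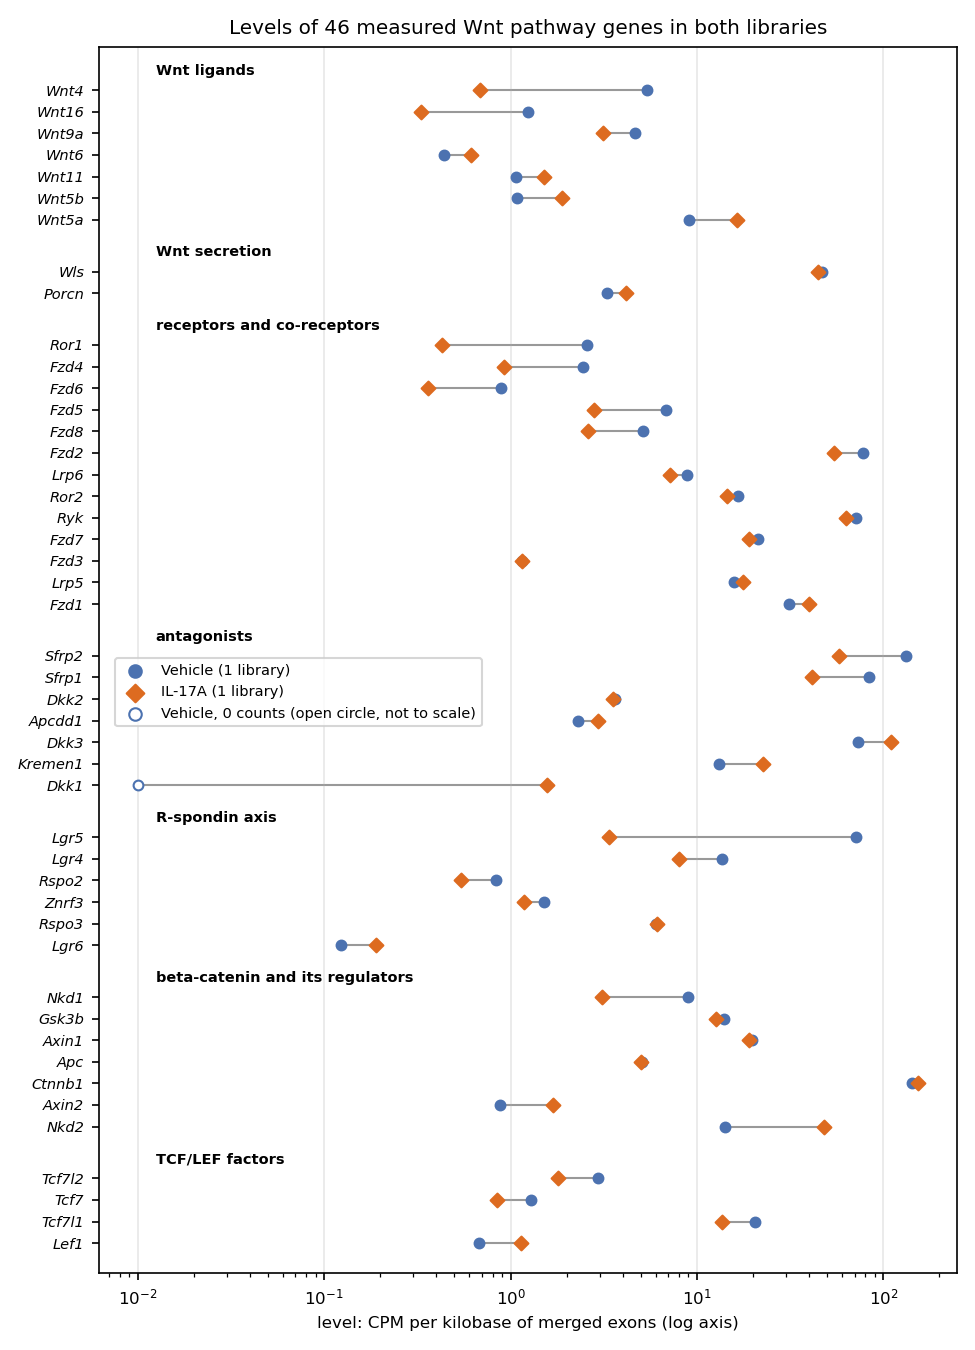
Level of each measured member in CPM per kilobase of merged exons on a log axis, with the vehicle library as circles and the IL-17A library as diamonds, 1 library each, joined by a line. Lgr5 spans 71.4 to 3.37, while Ctnnb1, Ryk and Wls sit at high levels in both libraries. With the basic annotation, whose exons are shorter, the Lgr5 levels were 155.6 and 7.33 and the Wls levels 109.1 and 104.03. The open circle stands for Dkk1, with 0 vehicle counts, and its place is not to scale.

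Of the 13 measured receptors and co-receptors, 4 were at least 2-fold lower (30.8%, against 3.69% of all measured genes). None was 2-fold higher (against 5.19% of all), and 11 had a ratio below 1 (84.6%, against 49.7%). The Frizzled genes with the highest levels were within 2-fold. Per exon length, Fzd2 led both libraries at 77.9 and 54.6, before Fzd1 at 31.3 and 39.8 and Fzd7 at 21.2 and 19.0. Fzd2 had 7137 vehicle counts and 4601 IL-17A counts, a log2 ratio of -0.51 (interval -0.57 to -0.46). Fzd7 had 2399 and 1980 counts, at -0.16 (interval -0.24 to -0.07), and Fzd3, at 370 and 339 counts, had an interval of -0.22 to 0.21 that held 0. Fzd1, with 3290 and 3846 counts, was the only Frizzled gene of the 8 measured that was above 0, at 0.35 (interval 0.28 to 0.41).

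Fzd4, known as the receptor for norrin in retinal vessels, had 409 vehicle counts and 142 IL-17A counts and was 2.65-fold lower (95% counting interval 2.18 to 3.23). Fzd5 had 1173 and 448 counts, 2.41-fold lower (95% counting interval 2.16 to 2.69). Fzd6, tied to hair orientation through planar cell polarity, had 107 and 40 counts, 2.46-fold lower (95% counting interval 1.70 to 3.63). Fzd8 stood just inside the limit with 765 and 359 counts, 1.961-fold lower (95% counting interval 1.73 to 2.23), and passed it under total-count and upper-quartile scaling. Fzd5 shares 17.8% of its exon bases with a gene on the other strand, and whether reads of that gene entered the count is not known, since the strand setting was not stated. Fzd4 lies on chromosome 7 at 89404355 to 89413134, Fzd5 on chromosome 1 at 64730558 to 64737751 and Fzd6 on chromosome 15 at 39006034 to 39038188.

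Of the co-receptors, Ror1 stood apart. Ror1, a receptor tyrosine kinase that binds Wnt5a, had 372 vehicle counts and 57 IL-17A counts and was 6.005-fold lower (95% counting interval 4.53 to 8.08). Its paralog Ror2 had 1756 and 1418 counts, a log2 ratio of -0.19 (interval -0.29 to -0.09). The ratio of Ror2 to Ror1 counts went from 4.72 to 24.9, a log2 difference of 2.40 (exact interval 1.98 to 2.84) that does not depend on how the libraries are scaled. Ryk, a receptor with an inactive kinase domain, had 8085 and 6558 counts, at -0.18 (interval -0.23 to -0.13). The canonical co-receptors Lrp5, at 3854 and 3965 counts, and Lrp6, at 3015 and 2266, stood at 0.16 (interval 0.10 to 0.23) and -0.29 (interval -0.37 to -0.21). Ror1 lies on chromosome 4 at 100095791 to 100444765. Fzd9, with 11 and 12 counts, and Fzd10, with 14 and 5, were under the minimum, as was Fzd10os, a noncoding row taken by the symbol rule, with 9 and 11.

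The antagonists went in opposite directions by family, with Sfrp genes lower and Dkk genes level or higher. Sfrp1 and Sfrp2, decoys that carry a Frizzled-like domain, had 9148 and 7077 vehicle counts, against 4147 and 2865 IL-17A counts. Sfrp2 was 2.27-fold lower (95% counting interval 2.18 to 2.37) and Sfrp1 was 2.03-fold lower (95% counting interval 1.96 to 2.11), close to the limit. Per exon length, Sfrp2 was the most abundant antagonist with vehicle at 131, and Dkk3 was with IL-17A at 109.6. Sfrp2 shares 16.1% of its exon bases with a gene on the other strand. Sfrp1 lies on chromosome 8 at 23411502 to 23449632 and Sfrp2 on chromosome 3 at 83766321 to 83774316. Sfrp4, under the minimum, had 32 and 5 counts, and Sfrp5 had none in either library.

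Dkk1, which blocks Lrp5 and Lrp6 and is itself a beta-catenin target, had 0 vehicle counts and 88 IL-17A counts. Against the floor of 3 counts this was 31.9-fold higher, and the low end of the counting interval gave at least 25.4-fold higher. Its level with IL-17A was still low, at 3.82 CPM. Dkk3, a secreted family member that does not bind Lrp6 in the manner of Dkk1, had 6138 and 8474 counts and a log2 ratio of 0.59 (interval 0.54 to 0.63). Dkk2 had 335 and 304 counts, with an interval of -0.25 to 0.21 that held 0. Kremen1, a receptor through which Dkk1 removes Lrp6 from the surface, had 2532 and 4016 counts and was 1.72-fold higher (95% counting interval 1.64 to 1.81). Apcdd1, a membrane-bound inhibitor expressed in hair follicles, had 744 and 870 counts, at 0.35 (interval 0.20 to 0.49). Wif1, with 17 and 12 counts, and Notum, the enzyme that strips the lipid from Wnt proteins, with 5 and 4, were under the minimum. Dkk1 lies on chromosome 19 at 30545863 to 30549665.

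The R-spondin axis held the member with the lowest ratio. Lgr5, a receptor for R-spondins and a marker of hair follicle and intestinal stem cells, had 18338 vehicle counts and 795 IL-17A counts. It was 21.2-fold lower (95% counting interval 19.8 to 22.8), and 0.0739% of all measured genes had a lower ratio. Lgr4, the broadly expressed paralog, had 2000 and 1089 counts, 1.69-fold lower (95% counting interval 1.57 to 1.82). Lgr6 had 21 and 30 counts, with an interval of -0.22 to 1.51 on the log2 scale, and its 51 summed counts were just over the minimum. Lgr5 lies on chromosome 10 at 115450311 to 115587780 and Lgr4 on chromosome 2 at 109917647 to 110014257.

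The leading Lgr receptor differed between the libraries. Lgr5 held 90.1% (95% Clopper-Pearson interval 89.7 to 90.5) of the counts of the 3 genes with vehicle and 41.5% (39.3 to 43.8) with IL-17A. Per exon length the Lgr4 share went from 15.96% to 69.3% with the comprehensive annotation and from 9.22% to 55.4% with the basic one. The summed level of the 3 receptors went from 814 to 83.2 CPM. Among the R-spondins, Rspo3, the most abundant, had 468 and 436 counts, with a log2 interval of -0.17 to 0.21 that held 0. Rspo3 shares 13.1% of its exon bases with a gene on the other strand. Rspo2 was lower, with 107 and 64, a log2 ratio of -0.62 (interval -1.09 to -0.16). Rspo1 had 32 and 17 counts, just under the minimum, and Rspo4 had 3 and 10. The ligase Znrf3 had 300 and 215 counts, at -0.36 (interval -0.62 to -0.10), and Rnf43 had none in either library.

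**Figure D3:**
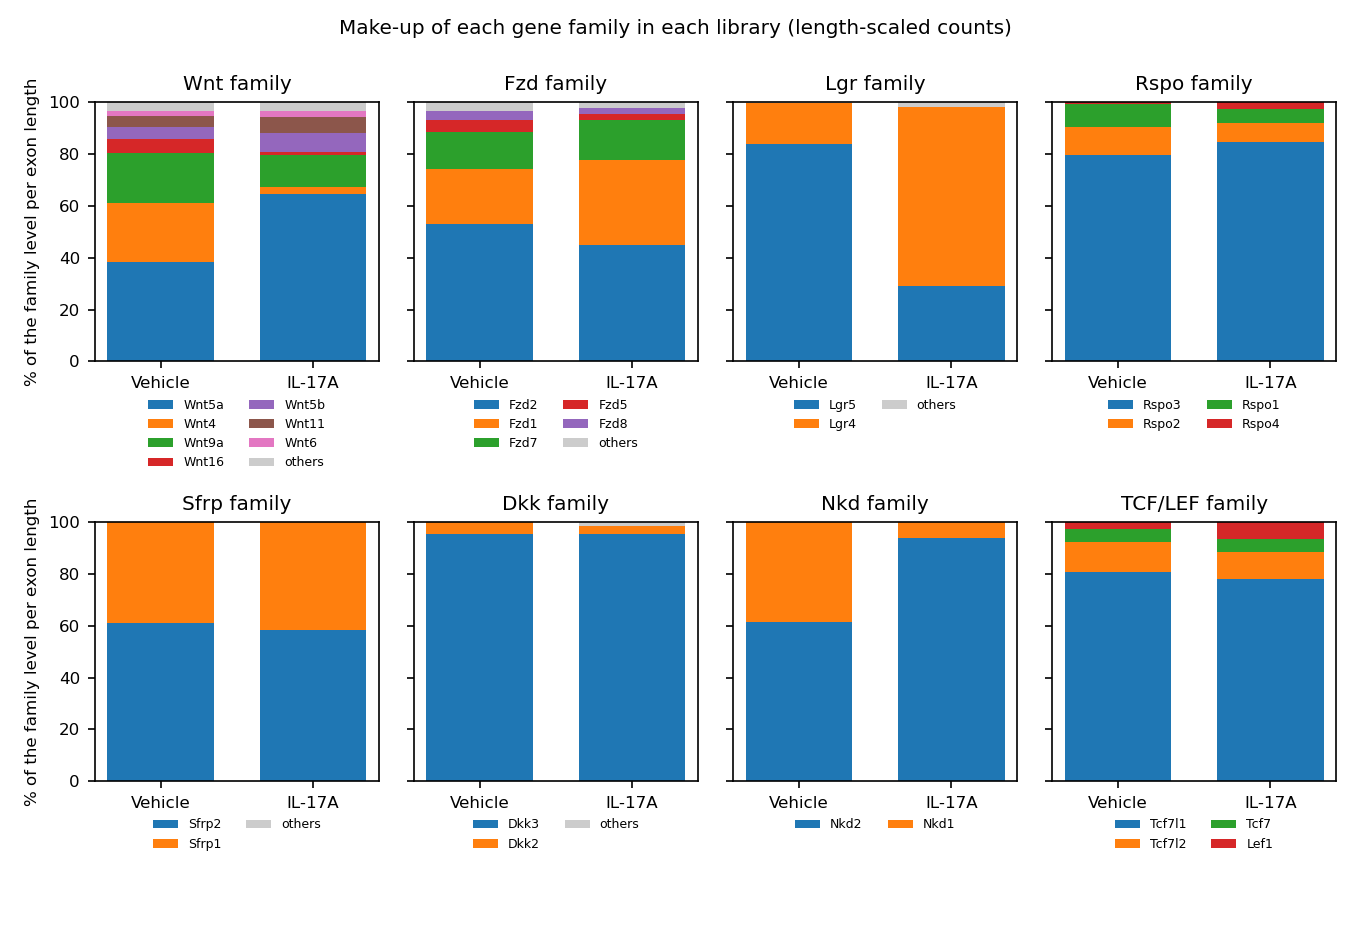
Share of each family's level per exon length held by each gene, in percent, for the vehicle and the IL-17A library, 1 library per bar. Lgr4 replaces Lgr5 as the leading Lgr gene, Wnt5a grows from 38.2% to 64.4% of the Wnt family, and Nkd2 grows from 61.4% to 93.97% of the Nkd pair. Genes under 2% in both libraries are grouped as others.

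Inside the cell, Ctnnb1, Axin1, Apc and Gsk3b were nearly level, while Axin2, Nkd1 and Nkd2 differed more. Ctnnb1, which encodes beta-catenin, had 18533 vehicle counts and 18321 IL-17A counts, a log2 ratio of 0.10 (interval 0.07 to 0.13), with 14.6% of its exon bases shared with Ulk4 on the other strand. The scaffold Axin1, at 1900 and 1683 counts, and the scaffold Apc, at 2039 and 1858, had intervals of -0.15 to 0.04 and -0.11 to 0.08. The kinase Gsk3b had 3450 and 2879 counts, at -0.14 (interval -0.21 to -0.07). Axin2, a scaffold that beta-catenin itself induces, had 121 and 213 counts and was 1.91-fold higher (95% counting interval 1.52 to 2.41), inside the limit.

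The naked cuticle genes parted. Nkd1, a feedback inhibitor that binds Dishevelled and a beta-catenin target, had 1019 vehicle counts and 324 IL-17A counts, 2.89-fold lower (95% counting interval 2.55 to 3.29). Nkd2, its paralog, had 1714 and 5350 counts, 3.39-fold higher (95% counting interval 3.21 to 3.58). The ratio of Nkd2 to Nkd1 counts was 1.68 with vehicle and 16.5 with IL-17A, a log2 difference of 3.30 (exact interval 3.10 to 3.50), and the pair's summed level was 109 and 247 CPM. Nkd1 lies on chromosome 8 at 88521354 to 88594884 and Nkd2 on chromosome 13 at 73818534 to 73847631.

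The TCF/LEF factors, through which beta-catenin reaches DNA, were all within 2-fold. Tcf7l1, mostly a repressor, had 2012 and 1225 counts, 1.51-fold lower (95% counting interval 1.41 to 1.62), and per exon length it led the family in both libraries at 20.5 and 13.6. Tcf7l2 had 648 and 364 counts, 1.64-fold lower (95% counting interval 1.44 to 1.87), and Tcf7 had 85 and 51, 1.53-fold lower (95% counting interval 1.07 to 2.21). Lef1, an activator that is also a Wnt target, went the other way with 149 and 229 counts, 1.67-fold higher (95% counting interval 1.35 to 2.07), and shares 13.7% of its exon bases with a gene on the other strand. The log2 difference between Lef1 and Tcf7 was 1.36 (exact interval 0.75 to 1.97).

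Promoter sequence was read for the 28 measured members present in the RefSeq table on GRCm38.p6, over the 250 bases before each start site, in 37 promoters. The TCF/LEF core CTTTGAT was found on either strand in 2 of the 37 (5.41%), in 3.21% of all 32851 promoters of the same length and in 2.21% of the 12605 promoters of measured genes. Its variant CTTTGAA was found in 1 (2.70%), against 4.46% of all and 2.98% of those of measured genes. The AP-1 motif TGANTCA was found in 2 (5.41%), against 6.75% and 4.53%, and the NF-kB motif in 0, against 3.90% and 4.62%. The TATA box letters TATAAA were found in 10 (27.0%), against 12.4% and 6.44%. These matches counted on either strand and anywhere in the window, from 8 bases before the start in Tcf7 to 242 in Tcf7l2. The share is thus of letters, not of promoters with a TATA box at its usual place. The TCF/LEF cores share all but their last letter, so no site counts for both, and a match describes letters, not a bound site. The windows below hold the TCF/LEF and AP-1 matches and the TATA box of Dkk1, the member with the highest ratio, with the motif in capitals as read 5′ to 3′ on the gene's strand, so that the Wnt11 match appears as its reverse complement.
Dkk1, chr19:30549595-30549624, minus strand: tcctcccaaagCTTTGAAatcccatcccgg
Dkk1 TATA box, chr19:30549533-30549562, minus strand: tgggagcctgagTATAAAggcagccagagg
Wnt11, chr7:98835050-98835079, plus strand: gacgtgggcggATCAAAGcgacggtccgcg
Wnt5b, chr6:119449439-119449468, minus strand: agtaagtctctCTTTGATctgctccctgtc
Wnt5b AP-1, chr6:119544520-119544549, minus strand: tcaccaaaaggTGAGTCAcgcgtccgcgct
Ror2 AP-1, chr13:53286196-53286225, minus strand: gtcgctgccctTGAGTCActccggcagagg

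The TCF/LEF matches thus fell in promoters of Dkk1, Wnt11 and Wnt5b, each with a log2 ratio above 0, and the AP-1 matches in those of Wnt5b and Ror2, which stood on opposite sides of 0. The Wnt5b matches lie before different start sites of that gene. Start sites are those of RefSeq: both Dkk1 windows and the Wnt5b TCF/LEF window lie inside the span that GENCODE M21 gives the gene, downstream of its outermost start. None of the motifs was found in the 7 promoters present for the members at least 2-fold lower, with Lgr5, Sfrp1 and Fzd6 absent. Over promoters of measured genes each motif was found in 2.21% to 6.44%, and a link of motifs with direction was not tested. For contrast, the 250 bases before the start site of Nkd2, 3.39-fold higher, and of Ror1, 6.005-fold lower, are shown whole. Neither held any of the motifs searched, which says only that these letters are not in this window, so no base is in capitals. Their GC contents were 58.4% and 62.4%, with a median of 60% over promoters of all measured genes.
Nkd2, chr13:73847632-73847881, minus strand: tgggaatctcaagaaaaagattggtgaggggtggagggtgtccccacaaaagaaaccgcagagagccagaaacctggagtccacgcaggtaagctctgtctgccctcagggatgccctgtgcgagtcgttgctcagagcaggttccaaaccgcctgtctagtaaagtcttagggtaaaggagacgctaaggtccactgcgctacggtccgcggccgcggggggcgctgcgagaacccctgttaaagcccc
Ror1, chr4:100095541-100095790, plus strand: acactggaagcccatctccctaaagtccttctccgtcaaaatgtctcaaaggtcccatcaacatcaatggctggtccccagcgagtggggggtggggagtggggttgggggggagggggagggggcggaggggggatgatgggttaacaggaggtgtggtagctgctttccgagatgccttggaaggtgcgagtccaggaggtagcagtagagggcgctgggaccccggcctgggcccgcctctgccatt

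Other genes of the pathway were read from lists chosen by role. Of 38 measured genes of intracellular transduction, such as the Dishevelled, casein kinase and Groucho genes, none passed 2-fold in either direction (0 of 38, against 8.88% of all measured genes), and the median log2 ratio was -0.05. The widest ratios were those of Cxxc4 at 0.61, and of Caprin2, Tle2 and Jup at -0.52, -0.52 and -0.44. Of 30 measured genes of the planar polarity and calcium branches, 1 was lower (3.33%, against 3.69% of all measured genes) and 0 higher (against 5.19%), with a median of -0.05. That gene was Daam2, a formin, with 402 vehicle counts and 139 IL-17A counts, 2.66-fold lower (95% counting interval 2.19 to 3.25), and the others with the widest ratios were Prkca at 0.92, Intu at 0.51 and Fat4 at -0.36.

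Extracellular modulators, proteins that bind or modify Wnt ligands and receptors, were spread more widely. Of 21 measured, 4 were at least 2-fold lower (19.0%, against 3.69% of all measured genes) and 2 higher (9.52%, against 5.19%), with a median of 0.13 that turned to -0.31 with a minimum of 10 counts. Draxin, a secreted antagonist that binds Lrp6, had 184 vehicle counts and 1495 IL-17A counts, 8.83-fold higher (95% counting interval 7.57 to 10.3). Trabd2b, also called Tiki2, a protease that inactivates Wnt ligands, had 226 and 51 counts, 4.08-fold lower (95% counting interval 2.998 to 5.64). Sulf2, a sulfatase that edits heparan sulfate and frees Wnt ligands from it, had 9917 and 2456 counts, 3.72-fold lower (95% counting interval 3.55 to 3.88). Igfbp4, which can bind Lrp6 and Frizzled, had 1834 and 479 counts, 3.52-fold lower (95% counting interval 3.18 to 3.90). Picked after seeing their values, as the other genes past 2-fold, the glypican Gpc6 stood at a log2 ratio of -1.56 and the syndecan Sdc4 at 1.63.

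Known beta-catenin targets had no common direction. Of 29 measured, 8 were at least 2-fold lower (27.6%, against 3.69% of all measured genes) and 6 higher (20.7%, against 5.19%), with a median of -0.25. Outside the members described above there were 21, of which 6 were lower and 5 higher, again with a median of -0.25. Ccn5, a matricellular protein, had 3758 and 642 counts, 5.39-fold lower (95% counting interval 4.95 to 5.87), and the growth factor Fgf18 had 64 and 3, 19.6-fold lower with an interval of 6.42 to 97.7. The homeobox gene Msx2 had 29 and 358 counts, 13.4-fold higher (95% counting interval 9.18 to 20.3), and the growth factor Fgf9 had 38 and 224, 6.41-fold higher (95% counting interval 4.53 to 9.29). Picked after seeing their values, the remaining targets beyond the limit were Ccnd1 at -1.81, Nrcam at -1.59, Jag1 at -1.02 and Bmp4 at -1.003 on the log2 scale, and Fst at 1.799, Twist2 at 1.15 and Tbx3 at 1.09. Twist2 shares 46.5% and Ccnd1 23.4% of exon bases with a gene on the other strand.

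**Figure D4:**
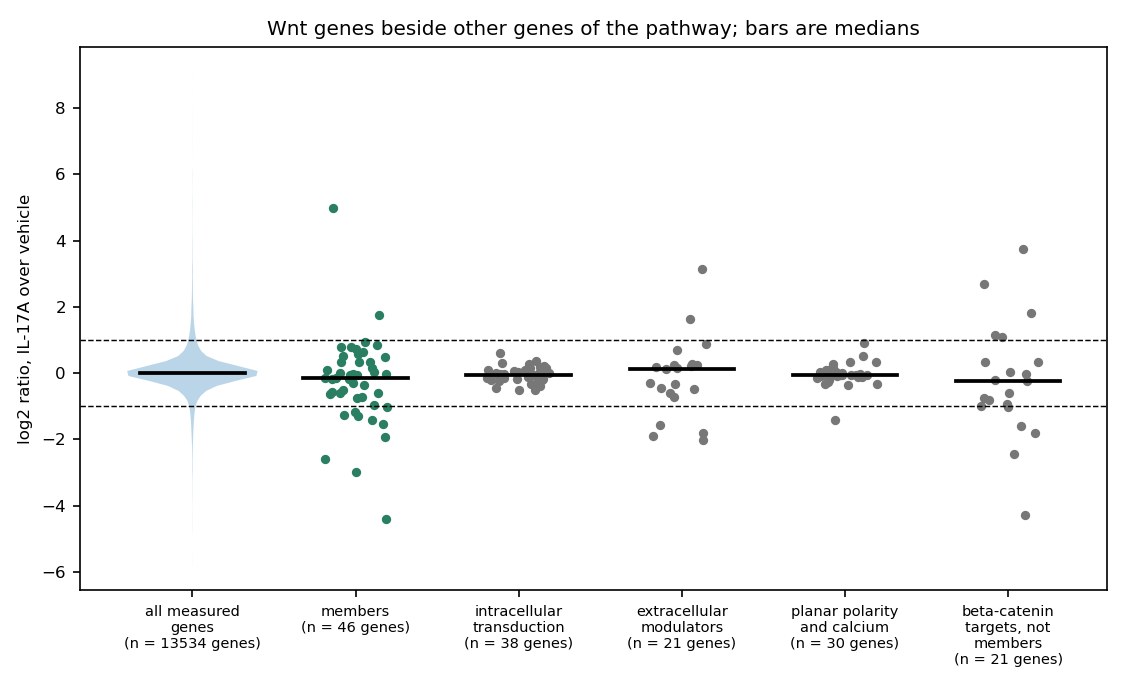
Log2 ratio, IL-17A over vehicle, for all 13534 measured genes as a violin and for single genes of each list as points, with medians as bars and 2-fold as dashed lines. The 38 intracellular transduction genes all lie within 2-fold, whereas the 46 members and the 21 beta-catenin targets that are not members reach past it in both directions.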

How the data were processed

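The deposited table holds raw counts per gene symbol, whole numbers that the authors did not normalize, with 1 column per library. Per the submitters' processing notes, STAR and featureCounts were used with the build mm10; for their versions, the annotation and the strand setting, nothing is stated in the sources used here. Per the labels' protocols, libraries were stranded mRNA preparations.

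TMM factors from edgeR 4.0.16 (R 4.3.3) set the effective library sizes, and each gene's scaled IL-17A count was divided by its scaled vehicle count. No test was made, since neither treatment was replicated. The interval of this ratio is the exact 95% Clopper-Pearson interval of a gene's IL-17A share; differences between genes carry the exact conditional interval of the odds ratio (scipy 1.17.1). A count of 0 was set to a floor of 3, and no ratio was formed where both libraries were at or under it. Exon lengths and positions came from GENCODE M21, which matched 62 of 63 members; the authors' annotation may differ. Total depth was 24427027 and 23559416 counts, and the interval of each gene gives its counting error only. The calculation was tested on simulated counts.

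All measured members are named. Of each pathway list the 4 genes with the widest ratio are named, and of each marker list the most abundant. Members, lists and rules were chosen with earlier results of these data known. Alternatives were other scalings, minimums, a prior count of 2, other fold limits and another exon annotation.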

Additional observations from a re-analysis of the deposited data

How the results depend on the processing

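No paired analysis was possible because each treatment had 1 library, and for the same reason no library could be left out. All 46 measured members kept the side of 2-fold and the sign of their log2 ratio with DESeq2 size factors and with a prior count of 2. Under total-count and upper-quartile scaling 45 kept their sign, the exception being Rspo3, and Fzd8 passed the 2-fold limit. Of the 25 other genes named by rule, the adipocyte marker Fabp4 alone changed side of 2-fold under these scalings. Median shifts over all genes from scaling reached -0.07. The count of members at least 2-fold higher was 2, and became 4 with a minimum of 10 counts or none, 1 with a minimum of 200 and 9 at 1.5-fold. The count lower was 10, and became 16 at 1.5-fold and 4 at 3-fold. With a minimum of 10 or none, Wnt2, Sfrp4 and Fzd10 joined the lower members, and with 200 Wnt16 and Fzd6 left them. Changes of a count by a factor of up to 1.5 are not all listed here. The members' median ranged from -0.22 to -0.14. Intracellular transduction genes gave 1 higher in place of 0 with a minimum of 10, with none, or at 1.5-fold. Planar polarity and calcium genes gave 1 higher in place of 0 under the same 3 settings, and 2 lower in place of 1 with a minimum of 10 or none and 0 at 3-fold. Extracellular modulators gave 4 higher at 1.5-fold, and their median of 0.13 turned to -0.31 with a minimum of 10 or none. Ndp and Musk then joined the modulators at least 2-fold lower. Beta-catenin targets gave 5 lower in place of 8 with a minimum of 200 or at 3-fold and 13 at 1.5-fold. Those outside the members gave 3 lower in place of 6 with a minimum of 200, 10 at 1.5-fold, and 3 higher in place of 5 at 3-fold. The median of both target sets was -0.32 with total-count scaling, -0.29 with upper-quartile scaling and -0.028 with a minimum of 200. Changes with the minimum follow from which genes enter, and those with the fold limit from where the cut lies. A change of scaling moves every log2 ratio by the same amount. The exon annotation, an alternative chosen after seeing the data, moved the IL-17A library's share of Lgr5 among Lgr genes from 29.0% to 43.4%. Depth limits members near the minimum, such as Lgr6 and Wnt6, whose intervals hold a ratio of 1.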

Other observations

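Ratios between related genes within a library do not depend on scaling, and 5 such pairs add to those given above; all were picked with their values known. Wnt5a over Wnt4 counts went from 3.13 with vehicle to 44.6 with IL-17A, a log2 difference of 3.83 (exact interval 3.45 to 4.23). Dkk3 over Sfrp2, antagonists of different families, went from 0.867 to 2.96, a log2 difference of 1.77 (exact interval 1.69 to 1.85). Axin2 over Axin1, the induced over the constitutive scaffold, went from 0.0637 to 0.127, a log2 difference of 0.99 (exact interval 0.65 to 1.34). Fzd1 over Fzd5 went from 2.80 to 8.58, and Lrp5 over Lrp6 from 1.28 to 1.75, with log2 differences of 1.61 (exact interval 1.44 to 1.79) and 0.45 (exact interval 0.35 to 0.56). These intervals cover counting error only.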
